A study of Mus musculus with 12 samples.

Results

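B16 cells, an established mouse melanoma line that makes melanin in culture, were set side by side on day 12 and on day 0 of a culture cycle in which they gain and lose pigment. The comparison rests on 4 of the 12 arrays of the study, chosen by their labels: 2 arrays of day 12, labelled pigmented, and 2 arrays of day 0, labelled depigmented. Each day had 1 array of set 1 and 1 of set 2, which the design text of the series places in consecutive cycles. Per the labels' protocols, cells of day 12 came from a seeding at 100 cells per cm2 in DMEM with fetal calf serum and were harvested on that day. How the day 0 cells were kept before harvest is not given in the sources used here. A separate label of plating density read 10000 cells per cm2 for set 1 and 100 for set 2 on day 12, and likewise on day 0, so that density and set could not be told apart on these 4 arrays. No gene was deleted, added or edited in either group. Day 12 differed from day 0 in time and pigmentation at once, and whether the seeding also differed is not given. Apart from the word cycle, no label states that set 1 and set 2 were grown as separate cultures. The p-values below therefore refer to array-to-array spread, part or all of which may be technical.

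Melanocytes and pigmented melanoma cells make melanin in melanosomes, organelles related to lysosomes. The enzymes tyrosinase, Tyrp1 and Dct work on a scaffold of Pmel fibrils, while transporters set the pH and cystine supply, and the transcription factor Mitf switches on most of these genes. Melanin synthesis produces reactive quinones and is closely tied to the redox state of the cell, and in mouse melanocytes a shortage of cystine favours dark melanin over red melanin. Growth signals, inflammatory cytokines and cell density are also known to act on pigment genes.

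Values are log2 normalized intensities of 1 probe per gene, the brightest over all arrays, given for set 1 and then set 2. A change is the day 12 mean minus the day 0 mean with its standard error (SE), n = 2 arrays per day, and a gene was called when its limma p-value, adjusted by Benjamini-Hochberg over all 11470 genes tested, was under 0.05. Between 42.8% and 43.7% of 45281 probes were detected on the day 12 arrays, against 41.6% and 42.2% on the day 0 arrays. Across genes, the day 12 arrays correlated with each other at 0.995 and the day 0 arrays at 0.996, while arrays of different days correlated at 0.959 to 0.961. All 8 melanocyte markers examined (Tyr, Tyrp1, Dct, Pmel, Mlana, Mitf, Sox10 and Slc45a2) were detected on all 4 arrays. In bulk RNA of this kind, fewer cells expressing a gene and less RNA per cell cannot be told apart.

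About as many genes moved as stayed within the error. Of the 11470 genes, 6000 (52.3%) were called, 2619 of them higher on day 12 (22.8%) and 3381 lower (29.5%). At least 2-fold changes were less common, with 495 genes higher (4.32%) and 550 lower (4.8%). The median change over all genes was -0.06, with percentiles 5 and 95 at -0.98 and 0.93. With the signal table's set numbers, no called gene changed in opposite directions in the 2 sets. Calling selects genes with little spread between arrays, so this is no independent support. Compared with days 4 and 8 combined, the earlier pigmented days, 3370 genes were higher on day 12 (29.4%) and 3242 lower (28.3%). That test shares the day 12 arrays with the main comparison. Each list count below is to be read beside the shares of all genes, 22.8% higher and 29.5% lower. For list counts against days 4 and 8, those shares are 29.4% and 28.3%.

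**Figure D1:**
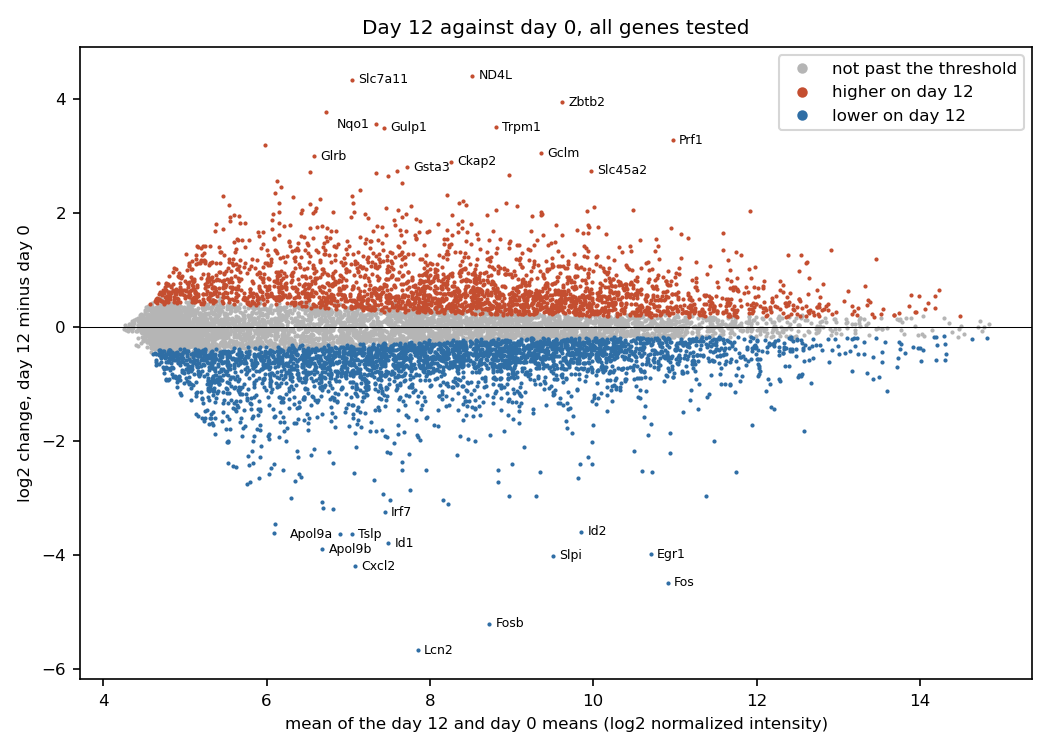
Change of each of the 11470 genes tested (vertical axis, log2, day 12 minus day 0) against its mean level on the 2 days (horizontal axis, log2 normalized intensity); red genes were called higher on day 12 and blue genes lower. The largest falls, led by Lcn2 at -5.68, reached further from 0 than the largest rises, led by ND4L at 4.40.

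The largest rises joined pigment, redox and unrelated genes. ND4L, a mitochondrially encoded subunit of respiratory complex I, had 10.88 and 10.56 on day 12, against 6.27 and 6.36 on day 0 (4.40 ± 0.13, adjusted p = 2.2e-16). Slc7a11, which brings cystine into the cell in exchange for glutamate, had 9.27 and 9.17 on day 12, against 4.94 and 4.83 on day 0, where 1 of 2 arrays detected it (4.33 ± 0.12, adjusted p = 3.3e-17). Its other probes also lay higher on day 12, by 1.92 and 3.34 with calls and by 0.38 without. In both genes the day 12 arrays stood far above the day 0 arrays, which the choice of the largest rises brings with it. Nqo1, a quinone reductase, had 9.06 and 9.17 on day 12, against 5.63 and 5.49 on day 0, a rise of 3.55 ± 0.12 or 11.7-fold (adjusted p = 2.1e-15). Gclm, the modifier subunit of the enzyme that starts glutathione synthesis, had 10.80 and 10.96 on day 12, against 7.77 and 7.91 on day 0, a rise of 3.04 ± 0.08 or 8.24-fold. Gsta3, a glutathione transferase, rose by 2.79 ± 0.13, with 9.07 and 9.15 on day 12, against 6.25 and 6.38 on day 0.

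Other genes among the largest rises have no shared textbook role. Zbtb2, a zinc finger transcription factor, had 11.61 and 11.58 on day 12, against 7.68 and 7.63 on day 0 (3.94 ± 0.07, 15.3-fold). Prf1, which encodes the pore-forming protein perforin of killer lymphocytes, had 12.58 and 12.63 on day 12, against 9.42 and 9.26 on day 0 (3.27 ± 0.09). These genes were also higher on day 12 than on days 4 and 8, by 3.83 for Zbtb2 and 2.84 for Prf1, whereas most other leading rises stood within about 1 log2 unit of those days. Of 11 leukocyte markers, Lyz2, Fcer1g and Laptm5 passed the detection filter, while others such as Ptprc and Cd3e did not. The cell source of the Prf1 signal was not tested. Gulp1, an adaptor for engulfment of dying cells, rose by 3.49 ± 0.11, with 9.26 and 9.10 on day 12, against 5.65 and 5.73 on day 0. Glrb, the beta subunit of the glycine receptor, rose by 2.99 ± 0.12, with 8.08 on each day 12 array, against 5.08 and 5.10 on day 0. Ckap2, a mitotic spindle protein described with the p53 targets below, rose by 2.90 ± 0.11. Trpm1 and Slc45a2 complete the 12 largest rises and belong to the pigment genes.

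**Figure D2:**
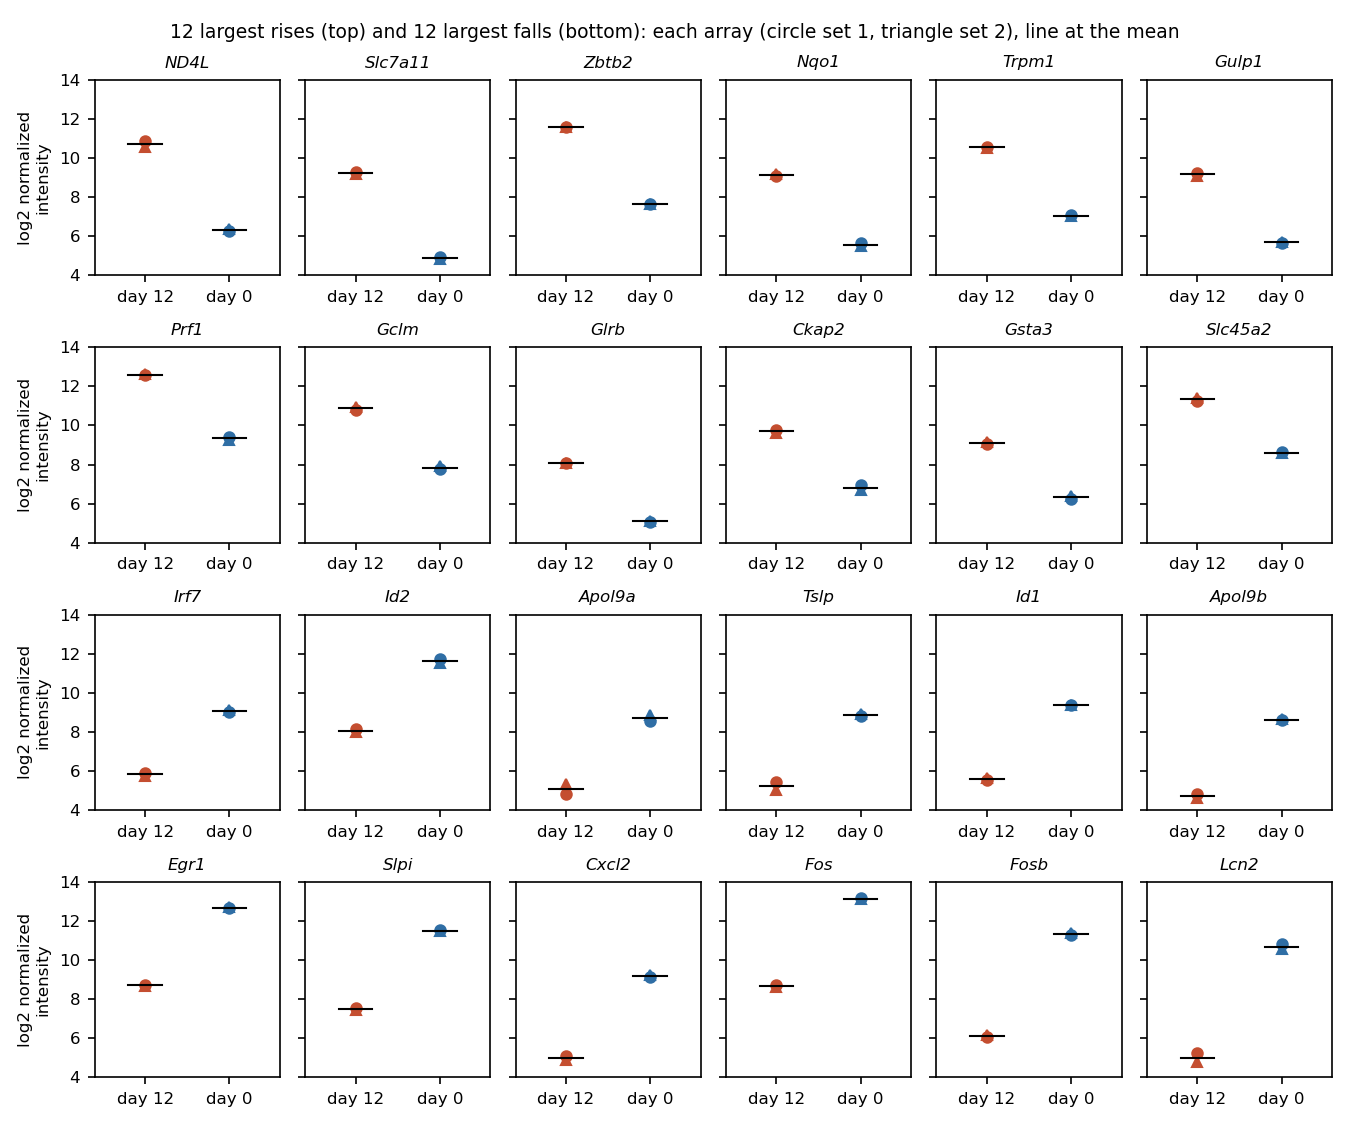
Log2 normalized intensity (vertical axis) of the 12 genes with the largest rises and the 12 with the largest falls on each array, day 12 in red at the left and day 0 in blue at the right, circles for set 1, triangles for set 2 and lines at the means of 2 arrays. The genes were picked by their change on these same arrays, so the days stand apart in every panel by choice. For Lcn2 the day 12 arrays sit at 5.23 and 4.80 and the day 0 arrays at 10.81 and 10.57.

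The largest falls were of inflammatory secreted proteins, immediate early factors, Id genes and interferon genes. Lcn2, which encodes the iron-siderophore binder lipocalin 2, had 5.23 and 4.80 on day 12, against 10.81 and 10.57 on day 0 (-5.68 ± 0.13, adjusted p = 3.1e-18). It was 51.1-fold higher on day 0, and only 1 of 2 arrays detected it on day 12. Slpi, a secreted inhibitor of neutrophil proteases, had 7.54 and 7.46 on day 12, against 11.53 and 11.50 on day 0 (-4.01 ± 0.09). Cxcl2, a neutrophil chemokine, had 5.10 and 4.88 on day 12, against 9.14 and 9.23 on day 0 (-4.20 ± 0.14). Tslp, a cytokine of epithelial alarm, had 5.43 and 5.02 on day 12, against 8.79 and 8.93 on day 0 (-3.64 ± 0.16). Apol9a and Apol9b, members of the apolipoprotein L family, gave -3.63 ± 0.15 and -3.91 ± 0.12. They are close copies, and the array may not tell them apart. Apol9b was detected on 1 day 12 array.

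Where no array of a day detected a gene that the other day did, the change is a bound. The bound is the mean of the detected day over, per array of the other day, the higher of the lowest detected value and the gene's own value. Of the genes called higher, 151 had such a bound, 145 of them detected on both day 12 arrays. Of those called lower, 190 had a bound, 169 of them detected on both day 0 arrays. The genes whose bounds are given here were detected on both arrays of the higher day. Cav2, a caveolin, was at least 13.2-fold higher on day 12 and Cck, the peptide hormone cholecystokinin, at least 6.48-fold. Ect2, the exchange factor that starts cytokinesis, was at least 3.38-fold higher, Ccne2, cyclin E2, at least 3.31-fold, and Met, the receptor of hepatocyte growth factor, at least 3.24-fold. Ugt1a10, a glucuronosyltransferase of a family whose members share coding sequence, was at least 3.30-fold higher. In the other direction Hp, the haemoglobin-binding haptoglobin, was at least 8.36-fold lower and Pvalb, the calcium buffer parvalbumin, at least 8.05-fold. Asic1, an acid-sensing sodium channel, was at least 5.28-fold lower, Ncf4, a subunit of the phagocyte NADPH oxidase, at least 5.02-fold, Map3k7cl at least 4.95-fold and Zfp395 at least 4.69-fold.

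Pigment genes were higher on day 12 in most cases, while Mitf was lower. Of 22 measured genes of pigment synthesis and melanocyte identity, 17 rose (77.3%, against 22.8% of all genes) and 2 fell, with a median of 0.72. By at least 2-fold, 9 rose. Trpm1, a cation channel of melanocytes, had 10.59 and 10.52 on day 12, against 7.09 and 7.02 on day 0 (3.50 ± 0.09, 11.3-fold). Slc45a2, a melanosomal transporter that affects lumen pH, had 11.26 and 11.42 on day 12, against 8.63 and 8.58 on day 0 (2.73 ± 0.07), and its other probes gave 2.51 to 4.07. Tyr, tyrosinase, the rate-limiting enzyme of melanin synthesis, had 8.75 and 8.63 on day 12, against 5.86 and 6.13 on day 0 (2.70 ± 0.11, 6.48-fold).

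The promoter window of Trpm1 is shown because it is the gene of the pigment list with the largest rise that holds the M-box core CATGTG, the short sequence that MITF binds. The letters were searched on both strands, in windows from 250 bases before to 50 after each transcription start in RefSeq on GRCm38.p6. The window below is chr7:64153585-64153884 on the plus strand. Capitals mark the match, which begins 141 bases before the start.
Trpm1: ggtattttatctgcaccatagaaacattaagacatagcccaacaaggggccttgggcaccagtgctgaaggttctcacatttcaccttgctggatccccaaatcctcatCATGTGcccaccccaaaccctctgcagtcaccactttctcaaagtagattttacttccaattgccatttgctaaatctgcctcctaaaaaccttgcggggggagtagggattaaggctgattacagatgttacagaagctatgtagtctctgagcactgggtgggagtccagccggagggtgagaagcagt
Of 26 windows of pigment genes, 8 held these letters (30.8%), compared with 14.2% of all 32851 windows in the table, and 6 of 14 windows of members that rose held them. Tyr and Mc1r were among these genes. A match is a description of the letters and not a binding site measured here.

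Structural proteins and receptors of the pigment list rose as well. Pmel, the fibril scaffold, had 12.34 and 12.49 on day 12, against 10.75 and 10.79 on day 0 (1.65 ± 0.07), and a second probe gave 3.30. Mlana, a melanosomal membrane protein, had 12.16 and 12.36 on day 12, against 10.85 and 10.97 on day 0 (1.35 ± 0.08). Mreg, melanoregulin, which acts in melanosome movement, rose by 1.96 ± 0.08. Gpr143, a melanosomal receptor, had 7.63 and 7.48 on day 12, against 6.35 and 6.34 on day 0 (1.21 ± 0.11). The surface receptors Mc1r, which binds melanocortins, and Kit, which binds stem cell factor, rose by 1.22 ± 0.12 and 0.74 ± 0.13. Slc24a4, a sodium-calcium exchanger, rose by 0.93 ± 0.19 and Cdk2, a kinase gene next to Pmel under Mitf control, by 0.70 ± 0.08.

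The melanin enzymes Dct and Tyrp1 moved little on their brightest probes. Dct had 14.56 on each day 12 array, against 13.85 and 13.98 on day 0 (0.64 ± 0.08), and a dimmer probe gave 1.17. Tyrp1 had 14.05 and 14.08 on day 12, against 13.66 and 13.96 on day 0 (0.26 ± 0.08, adjusted p = 0.012), while dimmer probes gave 1.83 and 2.65. Both genes sit near the top of the array's range. The rises of Sox10, a lineage factor (0.31 ± 0.07), Gpnmb (0.25 ± 0.07), Rab38 (0.22 ± 0.08) and Tyrp1 were no longer called with median centring in place of quantile normalization (0.15, 0.07, 0.07 and 0.11). Another Gpnmb probe was called in the other direction (-0.28) and a further one at 1.69. Leaving out the day 0 array of set 1 also ended the calls of Tyrp1 (0.11) and Gpnmb (0.24), leaving out that of set 2 the call of Rab38 (0.19), and leaving out the day 12 array of set 2 all 3 calls (0.24, 0.19 and 0.16).

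Mitf had 7.22 and 6.83 on day 12, against 8.31 and 8.34 on day 0, a fall of 1.30 on the log2 scale (SE 0.12, adjusted p = 1.2e-08). A second Mitf probe, detected on 1 of the 4 arrays, gave -0.08 with no call. Tfap2a, a lineage factor that works beside Mitf, also fell on its brightest probe (-0.55 ± 0.07), while another of its probes was called at 0.46. Pax3, an activator of Mitf, gave 0.01 ± 0.15 with no call. Oca2 and Slc24a5, both melanosomal transporters, gave 0.28 ± 0.17 and 0.09 ± 0.16 with no call, and were detected on 1 day 12 array and on no day 0 array.

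Day 12 was not the peak of these genes. Set against days 4 and 8, 18 of the 22 pigment genes were lower on day 12 (28.3% of all genes were) and 1 was higher. The log2 difference, day 12 minus those days, was -3.20 for Gpr143, -2.78 for Mitf, -1.68 for Mlana, -1.33 for Pmel, -1.19 for Slc45a2, -1.16 for Tyr and -0.42 for Trpm1, each called. Kit gave 0.02 with no call.

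Genes of melanosome biogenesis and transport moved in both directions. Of 28 measured, 15 rose and 8 fell (53.6% and 28.6%, beside 22.8% and 29.5% of all genes). The median was 0.28, or 0.18 with median centring. Slc7a11, described above, had the largest rise of this list (4.33) and is also on the NRF2 list. Mlph, melanophilin, the link between melanosomes and myosin, had 6.97 and 6.96 on day 12, against 5.13 and 5.56 on day 0 (1.62 ± 0.16). Sytl2, which docks melanosomes at the membrane, rose by 0.98 ± 0.07, Myo7a, a motor protein, by 0.95 ± 0.11, Hps3, a subunit of a complex for organelle biogenesis, by 0.93 ± 0.09, and Bloc1s2 by 0.90 ± 0.09. Hps1 (-0.95 ± 0.11) and the AP-3 adaptor subunits Ap3d1 (-0.88 ± 0.10) and Ap3m1 (-0.83 ± 0.14) fell.

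**Figure D3:**
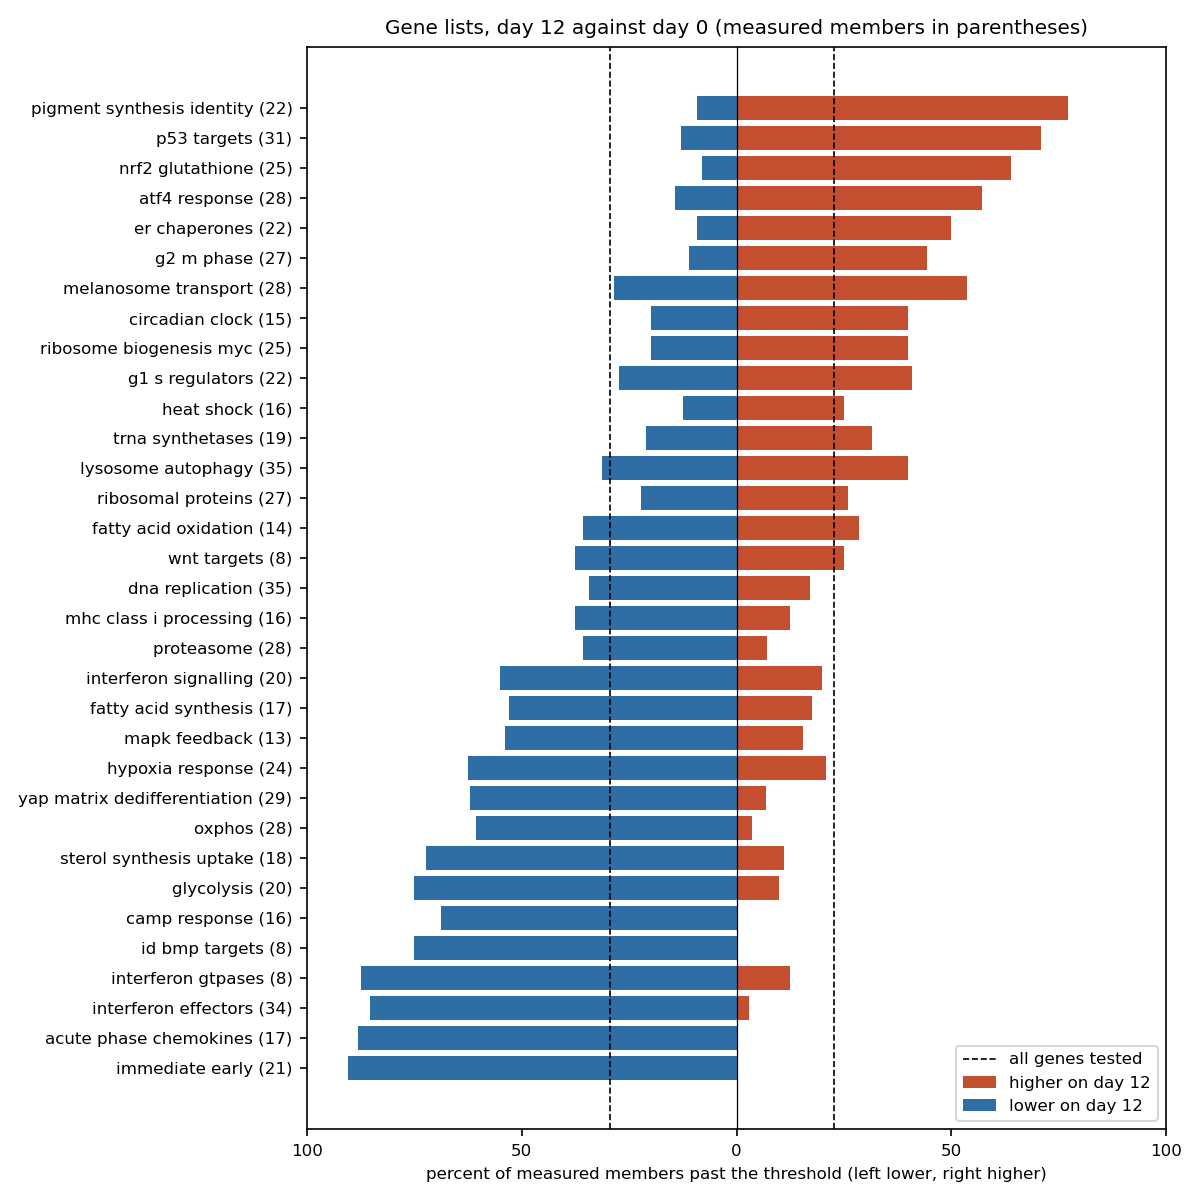
Percent of the measured members of each gene list called higher (right, red) or lower (left, blue) on day 12 than on day 0, with the number measured in parentheses; dashed lines stand at 22.8% and 29.5%, the shares of all genes called higher and lower. Lists of pigment synthesis, p53 targets and NRF2 genes lie at the top, and those of immediate early genes, chemokines and interferon effectors at the bottom.

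Interferon genes were lower on day 12. Interferons act through STAT and IRF factors to switch on antiviral effector genes. Of 34 measured effector genes, 29 fell (85.3%, against 29.5% of all genes) and 1 rose, with a median of -1.22, or -1.09 with genes undetected on a day at their bound. At least 2-fold falls numbered 19. Isg15, a ubiquitin-like modifier, had 8.53 and 8.44 on day 12, against 11.13 and 11.16 on day 0 (-2.66 ± 0.10, 6.30-fold higher on day 0). Oasl2 had 7.71 and 7.27 on day 12, against 10.43 and 10.49 on day 0 (-2.97 ± 0.12), and Oas2 and Oasl1, of the same family of nucleic acid sensors, gave -2.93 ± 0.12 and -2.69 ± 0.14. Dhx58, a regulator of RNA sensing, gave -2.55 ± 0.09, and Mx2, an antiviral GTPase, -2.52 ± 0.11. Tor3a, an ATPase of the endoplasmic reticulum, was the effector that rose (0.65 ± 0.16).

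The promoter window of Isg15 is shown as the interferon effector with the largest fall that holds the interferon-stimulated response element. The element was searched on both strands as a pair of GAAA blocks with any 2 bases between them. The window is chr4:156200769-156201068 on the minus strand (RefSeq, GRCm38.p6), printed in the direction of the gene. Capitals mark 3 overlapping matches, the first of which begins 78 bases before the start.
Isg15: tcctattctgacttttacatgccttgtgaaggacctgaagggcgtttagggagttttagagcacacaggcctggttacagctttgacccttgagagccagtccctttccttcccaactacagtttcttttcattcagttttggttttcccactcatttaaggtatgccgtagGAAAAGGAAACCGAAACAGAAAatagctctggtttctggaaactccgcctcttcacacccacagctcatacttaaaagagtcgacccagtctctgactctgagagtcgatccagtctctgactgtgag
The element was in 14 of 31 windows of effector genes (45.2%), compared with 3.44% of all windows. Of the 20 effector genes that fell and had a window, 11 held it.

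Factors that carry the interferon signal fell less evenly. Of 20 measured, 11 fell and 4 rose, with a median of -0.43, or -0.24 in the mean over probes. Irf7, which amplifies type I interferon, had 5.91 and 5.73 on day 12, against 9.03 and 9.12 on day 0 (-3.25 ± 0.12). Stat2 gave -1.61 ± 0.15, Irf5 -1.09 ± 0.17, the DNA sensor adaptor Sting1 -1.03 ± 0.16 and Stat3 -0.90 ± 0.09, and Irf8 was at least 2.96-fold lower. The receptor chain Ifngr2 rose by 1.10 ± 0.10 and the DNA sensor Cgas by 0.51 ± 0.11. Among 8 measured interferon-inducible GTPases, 7 fell (median -1.36, or -0.77 without the detection filter). Gbp3 had 7.68 and 7.29 on day 12, against 9.44 and 9.47 on day 0 (-1.97 ± 0.10), Gbp7 gave -1.76 ± 0.14, Igtp -1.40 ± 0.09 and Irgm2 -1.32 ± 0.08, while Gbp5 was at least 2.10-fold lower. Irgm1 rose on its brightest probe (0.86 ± 0.09) and fell on another (-0.41), both called.

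Antigen presentation did not move as a block. Of 16 measured class I genes 6 fell and 2 rose (37.5% and 12.5%, beside 29.5% and 22.8% of all genes), with a median of -0.26, or -0.41 and 8 falls in the mean over probes. The immunoproteasome gene Psmb10 had 7.12 and 7.22 on day 12, against 8.61 and 8.60 on day 0 (-1.44 ± 0.10), and the proteasome activator Psme1 gave -1.10 ± 0.08. Psmb9 gave -0.69 ± 0.12 and H2-T23 -0.53 ± 0.10, both called. B2m, the light chain of class I molecules, rose by 0.53 ± 0.07 on both of its probes, and the heavy chain H2-D1 rose by 0.41 ± 0.08. The H2-D1 call was lost with median centring (0.26). Of 7 measured class II genes 3 fell and 1 rose. H2-Ab1, a class II chain, had 6.49 and 6.79 on day 12, against 9.62 and 9.73 on day 0 (-3.03 ± 0.13), H2-DMa, which loads peptides, gave -1.36 ± 0.11, and H2-Aa was at least 2.43-fold lower. H2-DMb1 rose by 0.36 ± 0.09, with no call under median centring (0.27). Cd74, the invariant chain, gave -0.35 ± 0.16, Ctss -0.15 ± 0.17 and H2-Eb1 0.05 ± 0.17, none called.

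Parts of this program lay above the levels of days 4 and 8. H2-Ab1 was higher on day 12 than on those days by 2.01, H2-DMa by 2.02, H2-M3 by 1.97, H2-T23 by 1.74 and Psmb9 by 1.68. Among class I genes 12 of 16 were higher (29.4% of all genes were), among effectors 16 of 34 and among signalling factors 11 of 20. Called lower than on days 4 and 8 were 2 class I genes, 9 effectors and 2 signalling factors (28.3% of all genes were). Dhx58 was higher by 1.71 and Isg15 by 0.68, while Oas2 gave -0.86 and Oasl1 -0.71.

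Acute phase proteins and chemokines fell together. Of 17 measured, 15 were called lower (88.2%) and 0 higher, the median was -1.97, and 11 fell at least 2-fold. Without background correction the median was -0.98. Beside Lcn2, Slpi and Cxcl2, Saa3, a serum amyloid protein, had 6.73 and 6.62 on day 12, against 9.76 and 9.80 on day 0 (-3.11 ± 0.09). Ccl5, a T cell chemokine, had 9.87 and 9.92 on day 12, against 12.83 and 12.88 on day 0 (-2.96 ± 0.09). Cxcl1, a neutrophil chemokine, had 10.54 and 10.41 on day 12, against 13.01 and 13.04 on day 0 (-2.55 ± 0.08). These genes were picked as the largest falls of the list. Compared with days 4 and 8, Ccl5 was higher on day 12 by 1.80 and Cxcl1 by 1.37.

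**Figure D4:**
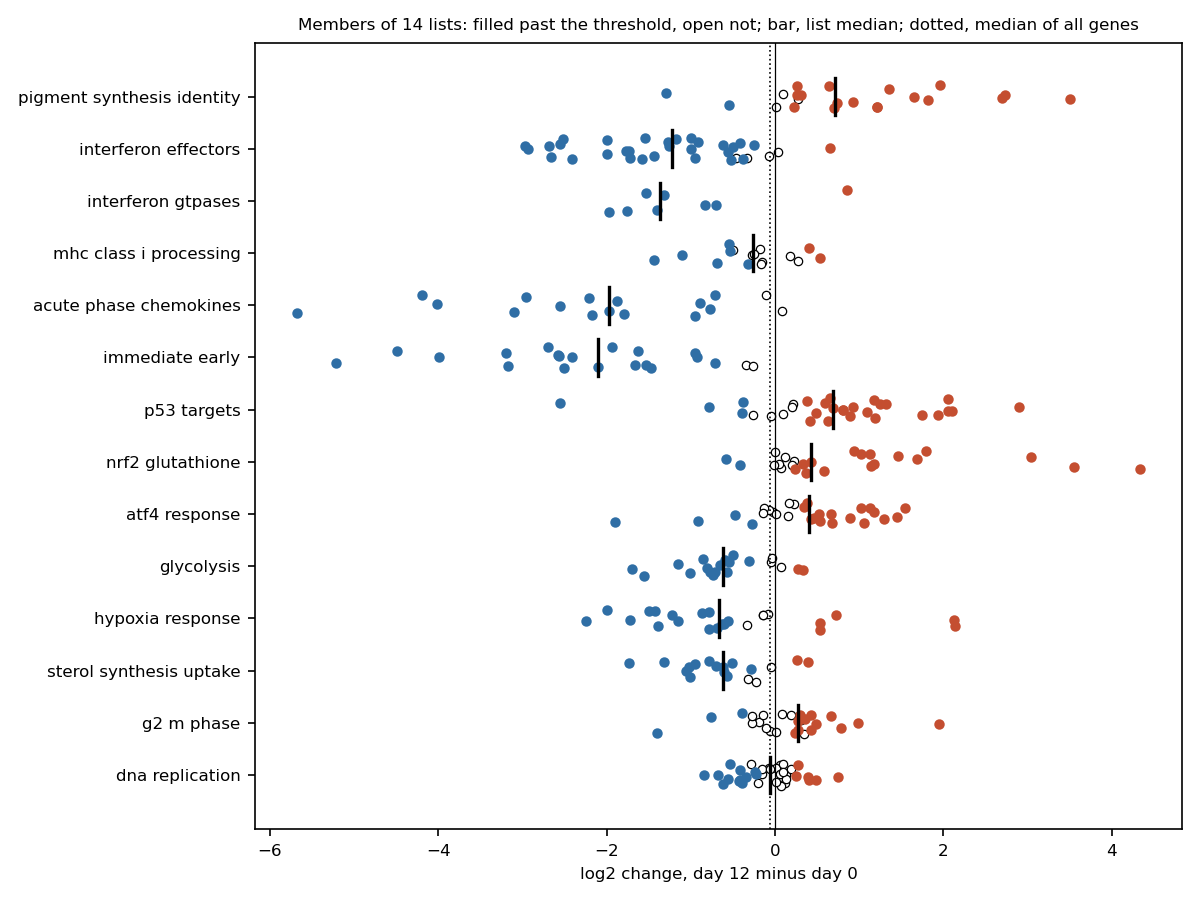
Change of each measured member of 14 gene lists (horizontal axis, log2, day 12 minus day 0), filled red where called higher, filled blue where called lower and open where not called; bars stand at list medians and the dotted line at the median of all genes, -0.06. The medians run from -2.10 for immediate early genes to 0.72 for pigment genes, and the NRF2 list has 3 members beyond 3.

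Immediate early genes, which respond to growth factors and stress within minutes without new protein synthesis, were lower on day 12. Of 21 measured, 19 fell (90.5%) and 0 rose, with a median of -2.10, the lowest of the lists with more than 1 measured member (-1.32 without background correction). Fosb had 6.09 and 6.15 on day 12, against 11.28 and 11.38 on day 0 (-5.21 ± 0.13, 37.1-fold higher on day 0). Fos had 8.72 and 8.61 on day 12, against 13.21 and 13.12 on day 0 (-4.49 ± 0.09). Egr1, a zinc finger factor, had 8.72 and 8.70 on day 12, against 12.69 and 12.71 on day 0 (-3.99 ± 0.08). The Kruppel-like factors Klf4 (-3.20 ± 0.17) and Klf2 (-3.17 ± 0.17) and the nuclear receptor Nr4a2 (-2.70 ± 0.19) fell too.

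Among 13 measured genes of a MAP kinase feedback list, not all of them inhibitors, 7 fell and 2 rose. The median was -0.40, or -0.23 in the mean over probes or without the detection filter. The phosphatase genes Dusp5, Dusp1 and Dusp10 gave -2.63 ± 0.16, -2.52 ± 0.08 and -2.15 ± 0.14, and Dusp1 had 9.41 and 9.26 on day 12, against 11.83 and 11.89 on day 0. Errfi1, an inhibitor of the EGF receptor, gave -1.36 ± 0.09. Dusp4, a nuclear phosphatase, had 10.91 and 10.77 on day 12, against 9.63 and 9.72 on day 0 (1.17 ± 0.08), a rise shared by its 3 other probes (0.65 to 1.49). Dusp6 fell on its brightest probe (-0.40 ± 0.07), but a dimmer probe was called at 1.14 and the mean over probes gave 0.25. The list of cyclic AMP response genes shares Fos, Dusp1, Nr4a1, Nr4a2, Nr4a3 and Per1 with other lists. On it 11 of 16 fell and 0 rose (median -0.81). Sik1, a kinase that feeds back on this pathway, was at least 4.49-fold and Nr4a1 at least 2.39-fold lower. The cyclic AMP response element TGACGTCA was in 1 of 22 promoter windows of immediate early genes and in 1.79% of all windows. Among windows of immediate early genes that fell, 0 of 19 held it.

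Id proteins block basic helix-loop-helix factors and are standard targets of BMP signalling. Of 8 measured genes of this group 6 fell, 0 rose, and the median was -1.40, or -1.21 with bounds. It was -0.87 without background correction, -0.45 without the detection filter and -2.48 over genes detected on all 4 arrays. Id1 had 5.53 and 5.66 on day 12, against 9.39 on each day 0 array (-3.80 ± 0.14). Id2 had 8.13 and 7.99 on day 12, against 11.74 and 11.55 on day 0 (-3.59 ± 0.08), and Id3 averaged 5.99 on day 12 and 9.03 on day 0 (-3.04 ± 0.16). Id2 was also lower on day 12 than on days 4 and 8 (-3.75). Hes1, a Notch target, gave -1.92 ± 0.13, Atoh8 was at least 1.41-fold lower, and Hey1 gave -0.45 ± 0.15, a call lost with the authors' value table (-0.26), with median centring (-0.37) and without the day 12 array of set 2 (-0.39), the day 0 array of set 1 (-0.43) or that of set 2 (-0.46). Smad6, an inhibitor of BMP signalling, gave -0.07 ± 0.15 and Smad9 0.11 ± 0.17, with no call.

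Targets of p53, the factor that answers DNA damage and other stress, were higher on day 12 in most cases. Of 31 measured 22 rose (71.0%, against 22.8% of all genes) and 4 fell, with a median of 0.69, and 11 rose at least 2-fold. Mdm2, the ubiquitin ligase that holds p53 in check, had 11.57 and 11.45 on day 12, against 9.45 and 9.46 on day 0 (2.05 ± 0.08, 4.15-fold). Trp53inp1 had 11.10 and 11.01 on day 12, against 8.98 and 8.93 on day 0 (2.10 ± 0.08). Polk, a polymerase that copies damaged DNA, had 9.96 and 9.72 on day 12, against 7.84 and 7.73 on day 0 (2.05 ± 0.11). Ccng1, cyclin G1, had 11.81 and 11.83 on day 12, against 10.01 and 10.15 on day 0 (1.74 ± 0.08), and its other probes gave 2.46 and 2.93. Cdkn1a, the cell cycle inhibitor p21, had 12.49 and 12.50 on day 12, against 11.71 and 11.67 on day 0 (0.80 ± 0.07).

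Further rises came from genes of several p53 branches. Gtse1, which moves p53 out of the nucleus, rose by 1.94 ± 0.08, Ephx1 by 1.31 ± 0.07, Zmat3, an RNA-binding protein, by 1.24 ± 0.09, Aen, a nuclease, by 1.19 ± 0.17, Sesn2, a stress regulator of mTORC1, by 1.17 ± 0.13, and Tigar, which slows glycolysis, by 1.09 ± 0.18. Aen and Tigar were each detected on 1 of the 2 day 0 arrays. Ei24 (0.93 ± 0.08), the ribonucleotide reductase subunit Rrm2b (0.89 ± 0.10), Plk3 (0.80 ± 0.14), Phlda3 (0.65 ± 0.09) and the ectodysplasin receptor Eda2r (0.59 ± 0.15) followed. The death receptor gene Tnfrsf10b rose by 0.69 ± 0.20, a call lost without the day 12 array of set 2 (0.41) or the day 0 array of set 1 (0.58). The pro-apoptotic Bbc3 rose on its brightest probe (0.63 ± 0.10), but another probe was called at -0.54 and the mean over probes gave -0.06. The repair genes Ercc5 and Xpc rose by 0.49 ± 0.08 and 0.41 ± 0.10, without a call under median centring (0.34 and 0.33), and Pltp by 0.38 ± 0.15, without a call when the day 12 array of set 2 (0.27), the day 0 array of set 1 (0.34) or that of set 2 (0.42) was left out.

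The members of the p53 list that fell are also known as growth or stress response genes. Gadd45g had 9.38 and 9.50 on day 12, against 11.92 and 12.06 on day 0 (-2.55 ± 0.08), Gadd45b gave -0.78 ± 0.12, Plk2 -0.40 ± 0.10 and Gadd45a -0.39 ± 0.12. The last was no longer called without the day 0 array of set 1 (-0.34), and Plk2 without that of set 2 (-0.26). Ddb2 (0.22 ± 0.12), Dglucy (0.21 ± 0.16), Fas (0.10 ± 0.15), Sesn1 (-0.05 ± 0.08) and Btg2 (-0.26 ± 0.20) were not called. Against days 4 and 8, 22 of 31 were higher on day 12 and 3 lower, among them Fas at 1.86, Gadd45b at 2.48, Bbc3 at 1.15 and Mdm2 at 0.56.

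Ckap2 is shown with its promoter window as the p53 target with the largest rise that holds the p53 decamer. It had 9.79 and 9.62 on day 12, against 6.94 and 6.67 on day 0, and it is both a p53 target and a mitotic gene. The window is chr8:22185770-22186069 on the minus strand (RefSeq, GRCm38.p6), searched on both strands, with the match in capitals.
Ckap2: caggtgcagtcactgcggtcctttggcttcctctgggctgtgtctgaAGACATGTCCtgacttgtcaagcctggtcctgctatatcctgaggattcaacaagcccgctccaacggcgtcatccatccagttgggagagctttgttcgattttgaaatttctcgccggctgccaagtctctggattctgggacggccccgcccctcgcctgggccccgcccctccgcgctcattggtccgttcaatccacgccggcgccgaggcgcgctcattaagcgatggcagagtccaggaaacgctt
The decamer was in 12 of 35 windows of the list (34.3%), compared with 8.36% of all windows, and in 9 of 23 windows of members that rose.

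Cell cycle genes did not move one way. Among regulators of G1 and S phase, 9 of 22 rose and 6 fell (40.9% and 27.3%, median 0.13). The shares of all genes were 22.8% and 29.5%. Beside Ccne2, the inhibitor Cdkn1b (p27) had 7.19 and 7.39 on day 12, against 6.22 and 6.47 on day 0 (0.95 ± 0.14), and the pocket protein Rbl1 rose by 0.85 ± 0.10 on its brightest probe, with no call in the mean over probes (0.24). Cdk6, detected on 1 day 0 array, rose by 0.71 ± 0.18 and lost its call without the day 0 array of set 2 (0.51). Ccne1, cyclin E1, had 6.94 and 6.97 on day 12, against 7.74 and 7.56 on day 0 (-0.70 ± 0.15), opposite to Ccne2, and E2f4 gave -0.63 ± 0.11. Ccnd1, cyclin D1, rose by 0.40 ± 0.08 without a call under median centring (0.25), and Cdk4 (0.02 ± 0.08), Ccnd3 (-0.04 ± 0.07), E2f3 (0.16 ± 0.11) and Cdkn2c (-0.22 ± 0.12) were not called. Cdkn2a, which encodes p16 and Arf, had 5.23 and 5.84 on day 12, against 6.02 and 6.27 on day 0 (-0.61 ± 0.26, adjusted p = 0.052). It was called when only the 4 arrays of these days entered the fit (-0.62).

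Of 27 genes of G2 and M phase 12 rose and 3 fell (median 0.28), but with median centring 5 rose (median 0.14), and without background correction the median was 0.16. Without the day 0 array of set 2, 7 rose. The spindle checkpoint gene Mad2l1 had 10.56 and 10.70 on day 12, against 9.67 and 9.63 on day 0 (0.98 ± 0.08), Aurkb, a mitotic kinase, rose by 0.78 ± 0.08 and Top2a, a topoisomerase, by 0.66 ± 0.09. The transcription factor Mybl2 (-1.40 ± 0.16) and the spindle motor Kif11 (-0.76 ± 0.10) fell. In DNA replication 12 of 35 fell and 6 rose, close to the shares of all genes, with a median of -0.06. Pold2, a polymerase subunit, gave -0.84 ± 0.09, Dut, which removes dUTP, -0.68 ± 0.12, and Lig1, a ligase, -0.62 ± 0.14, while Rfc3 rose by 0.75 ± 0.16 and Rrm2 by 0.49 ± 0.11. With the mean over probes 5 replication genes fell, and Dut lost its call (-0.27). Against days 4 and 8, 33 of the 35 were lower on day 12 and 0 higher.

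Genes of the antioxidant factor NRF2, which is held back by Keap1 until cysteines of Keap1 are oxidized, were higher on day 12. Of 25 measured 16 rose (64.0%) and 2 fell, with a median of 0.42 (0.28 with median centring), and 10 rose at least 2-fold. Slc7a11, Nqo1 and Gclm led them. Nfe2l2, the gene of NRF2 itself, had 9.11 and 9.35 on day 12, against 7.75 and 7.79 on day 0 (1.45 ± 0.09). The glutathione transferases Gsta1 and Gsta2 rose by 1.79 ± 0.09 and 1.68 ± 0.08. They are close copies of each other, so that their values may share signal, and Gsta3 belongs to the same family. The metallothionein Mt1 averaged 14.02 on day 12 and 14.60 on day 0 (-0.58 ± 0.07). Mt2 gave -0.42 ± 0.17, a call lost without the day 12 array of set 1 (-0.33) or the day 0 array of set 1 (-0.18) and with median centring (-0.34), the authors' value table (-0.27) or no background correction (-0.18). Nqo1 was also higher than on days 4 and 8, by 0.99, and Nfe2l2 by 0.89, while Gsta1 and Gsta2 gave -1.41 and -1.81.

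Gclm is shown with its promoter window as the gene of this list with the largest rise that holds the antioxidant response element, searched as TGACNNNGC on both strands. The window is chr3:122245307-122245606 on the plus strand (RefSeq, GRCm38.p6). Capitals mark the match, which lies on the other strand and begins 134 bases before the start.
Gclm: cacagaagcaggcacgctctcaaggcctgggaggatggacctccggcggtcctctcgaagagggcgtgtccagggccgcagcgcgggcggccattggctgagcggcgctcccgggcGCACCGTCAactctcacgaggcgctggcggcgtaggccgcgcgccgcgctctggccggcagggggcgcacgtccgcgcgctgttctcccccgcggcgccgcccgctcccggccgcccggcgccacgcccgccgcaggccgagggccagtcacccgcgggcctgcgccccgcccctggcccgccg
The element was in 9 of 30 windows of the list (30.0%), compared with 12.4% of all windows.

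ATF4 is the factor of amino acid shortage and the integrated stress response, and 16 of its 28 measured targets rose (57.1%) and 4 fell, at a median of 0.40. Phgdh, the entry enzyme of serine synthesis, had 8.52 and 8.69 on day 12, against 7.02 and 7.09 on day 0 (1.55 ± 0.10). Trib3, a pseudokinase, had 9.75 and 9.79 on day 12, against 8.46 and 8.50 on day 0 (1.30 ± 0.08), and Ddit3, the factor CHOP, had 9.94 and 10.26, against 9.12 and 8.96 on day 0 (1.06 ± 0.10). Atf5 rose by 1.45 ± 0.15 and Mthfd2, a mitochondrial folate enzyme, by 1.13 ± 0.07. Ppp1r15a, the phosphatase subunit that ends the response, had 7.59 and 7.97 on day 12, against 9.75 and 9.61 on day 0 (-1.90 ± 0.11), Cebpb gave -0.92 ± 0.07 and Atf4 itself -0.48 ± 0.08, with no call on its second probe (-0.01). Of 19 aminoacyl-tRNA synthetases, many of which ATF4 controls, 6 rose and 4 fell (31.6% and 21.1%, median 0.05). The shares of all genes were 22.8% and 29.5%. Eprs gave 0.98 ± 0.08 on its brightest probe and -0.80 on another, both called, and Kars gave -0.59 ± 0.10 on its brightest probe and 1.30 on another.

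The endoplasmic reticulum folds membrane and secreted proteins with its own chaperones, and 11 of 22 such genes were called higher and 2 lower (median 0.28), with 6 higher under median centring. Edem1, which clears misfolded glycoproteins, rose by 0.93 ± 0.16, the disulfide isomerase Pdia4 by 0.83 ± 0.08, calreticulin, Calr, by 0.72 ± 0.11 and the ubiquitin ligase Syvn1 by 0.63 ± 0.08. P4hb, the main disulfide isomerase, fell, with 11.42 and 11.69 on day 12, against 12.74 and 12.62 on day 0 (-1.13 ± 0.09). On days 4 and 8 these genes stood higher: 18 of the 22 were lower on day 12, among them Calr (-2.31) and Dnajc3 (-1.73).

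The heat shock list, mostly cytosolic chaperones, had 4 of 16 members higher and 2 lower, shares near or below those of all genes, with a median of 0.05. Cryab, a small heat shock protein, had 10.54 and 10.88 on day 12, against 9.99 and 9.81 on day 0 (0.81 ± 0.13). Hsph1, a nucleotide exchange factor of Hsp70, had 8.59 and 8.46, against 7.97 and 7.92 on day 0 (0.58 ± 0.08), and the mitochondrial chaperonin subunit Hspe1 rose by 0.51 ± 0.08. Chordc1 rose by 0.47 ± 0.08, with no call under median centring (0.36). The heat shock element, searched on both strands as GAA, TTC and GAA in turn with any 2 bases between blocks, was in 5 of 20 windows of the list, compared with 0.603% of all windows, and in the windows of 3 genes that rose. The window of Hsph1, the gene with the largest rise among these, is chr5:149636287-149636586 on the minus strand (RefSeq, GRCm38.p6), with the match in capitals beginning 36 bases after the start.
Hsph1: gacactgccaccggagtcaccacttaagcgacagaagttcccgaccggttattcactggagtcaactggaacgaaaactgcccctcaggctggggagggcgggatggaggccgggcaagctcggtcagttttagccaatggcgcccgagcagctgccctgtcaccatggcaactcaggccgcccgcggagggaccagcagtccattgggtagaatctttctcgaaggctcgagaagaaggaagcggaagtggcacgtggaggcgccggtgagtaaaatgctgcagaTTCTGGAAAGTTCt
Hsph1 was lower on day 12 than on days 4 and 8 (-2.58).

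Glycolysis genes were lower on day 12. Of 20 measured 15 fell and 2 rose, with a median of -0.62 beside -0.06 for all genes. With the mean of probes the median was -0.21, with 11 falls and 3 rises. Slc16a3, the lactate exporter, had 5.63 and 5.69 on day 12, against 7.29 and 7.43 on day 0 (-1.70 ± 0.16). Aldoc, an aldolase, had 7.75 and 7.76, against 9.42 and 9.21 on day 0 (-1.56 ± 0.13). The kinase Pfkl gave -1.02 ± 0.08, the glucose transporter Slc2a1 -0.85 ± 0.09 and the pyruvate kinase Pkm -0.80 ± 0.07. Pdk1, a kinase that inhibits pyruvate dehydrogenase, gave -1.15 ± 0.13 on its brightest probe. Another Pdk1 probe was called at 1.46, and the mean over probes gave 0.16. The neuronal glucose transporter Slc2a3 and the enolase Eno2 rose by 0.33 ± 0.11 and 0.27 ± 0.09, calls lost under median centring (0.30 and 0.17). Slc2a3 was also not called without the day 0 array of set 1 (0.28), nor Eno2 without the day 12 (0.22) or day 0 (0.24) array of set 2.

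Of 24 genes of the hypoxia response, which share Pdk1 with the glycolysis list, 15 fell (62.5%) and 5 rose, at a median of -0.66. Ankrd37 had 7.20 and 7.21 on day 12, against 9.37 and 9.53 on day 0 (-2.24 ± 0.18). Ak4, an adenylate kinase of mitochondria, gave -1.72 ± 0.12, Bnip3l, a mitophagy receptor, -1.50 ± 0.08, Egln3, an oxygen-sensing hydroxylase, -1.43 ± 0.11 and Ndrg1 -1.39 ± 0.14, and the hormone Stc1 was at least 3.24-fold lower. Hif1a, the oxygen-regulated subunit that drives these genes, went the other way: it had 8.73 and 8.92 on day 12, against 6.56 and 6.85 on day 0 (2.12 ± 0.11, 4.35-fold). P4ha1, a collagen hydroxylase, rose by 2.14 ± 0.10 on its brightest probe, but a second probe gave 0.03. Epas1, which encodes HIF2 alpha, was detected on 1 day 0 array and rose by 0.72 ± 0.19, a call lost without the day 0 array of set 1 (0.47). Ankrd37, Egln3, Ak4 and Ndrg1 were higher on day 12 than on days 4 and 8, by 1.88, 1.95, 1.47 and 1.25, and 18 of 24 hypoxia genes and 14 of 20 glycolysis genes were.

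Sterol genes, which SREBP2 switches on when membranes lack cholesterol, were lower on day 12. Of 18 measured 13 fell (72.2%) and 2 rose, with a median of -0.62. Mvd, an enzyme of the mevalonate pathway, had 5.95 and 6.33 on day 12, against 7.90 and 7.87 on day 0 (-1.74 ± 0.13). Stard4, a sterol carrier, gave -1.32 ± 0.09, Msmo1 -1.06 ± 0.07, Dhcr7, the last enzyme of cholesterol synthesis, -1.03 ± 0.10 and Lss -0.96 ± 0.13. The rises of Nsdhl (0.39 ± 0.13) and Cyp51 (0.26 ± 0.10) were small. Another Nsdhl probe was called at -1.04 and the mean over probes gave -0.11, and Cyp51 lost its call when only the 4 arrays of these days entered the fit (0.26) and under median centring (0.22). Neither rise was called without the day 12 array of set 2 (0.33 and 0.23) or the day 0 array of set 2 (0.32 and 0.13). The sterol regulatory element, searched as TCACNCCAC on both strands, was in 1 of 20 windows of the list and in 1.24% of all windows. Among windows of sterol genes that fell, 0 of 13 held it. Here 16 of the 18 were also lower than on days 4 and 8 and 0 higher, with -2.11 for Lss and -1.78 for Mvd.

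Of 17 genes of fatty acid synthesis 9 fell and 3 rose (median -0.27). Acss2, which makes acetyl-CoA from acetate, had 9.20 and 9.03 on day 12, against 10.34 and 10.33 on day 0 (-1.22 ± 0.09), the desaturase Scd1 gave -0.73 ± 0.09 and the elongase Elovl6 -0.52 ± 0.10. Lpin1, a phosphatidate phosphatase, rose by 1.25 ± 0.12 and the desaturase Scd2 by 0.96 ± 0.19. In fatty acid oxidation 5 of 14 fell and 4 rose (35.7% and 28.6%, beside 29.5% and 22.8% of all genes, median 0.04). Acadl, a long-chain dehydrogenase, had 8.99 and 8.95 on day 12, against 7.61 and 7.69 on day 0 (1.32 ± 0.10), while Acads, its short-chain relative, gave -0.88 ± 0.11 and the electron carrier subunit Etfb -0.82 ± 0.09.

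Nuclear genes of the respiratory chain moved little but mostly downward. Of 28 measured 17 fell (60.7%) and 1 rose, with a median of -0.24 (-0.39 with median centring), and 0 changed at least 2-fold. Leaving out the day 0 array of set 2 left 11 falls. Uqcrc1 and Cox7a2, subunits of complexes III and IV, gave -0.84 ± 0.07 and -0.81 ± 0.09, and Uqcrc1 had 11.02 on each day 12 array, against 11.87 and 11.85 on day 0. This was opposite to ND4L, the mitochondrially encoded gene with the largest rise of all.

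Genes of matrix, adhesion and YAP signalling, only some of which mark dedifferentiated melanoma cells, were mostly lower on day 12. Of 29 measured 18 fell (62.1%) and 2 rose, with a median of -0.61, or -0.56 with bounds and -0.40 without background correction. Ccn1, a matricellular YAP target, had 9.87 and 9.84 on day 12, against 11.54 and 11.59 on day 0 (-1.71 ± 0.08). Ngfr, the neurotrophin receptor of neural crest cells, had 4.89 and 4.87, against 6.94 and 7.01 on day 0 (-2.09 ± 0.15). Timp1, a protease inhibitor, gave -1.26 ± 0.08, and the collagen genes Col4a1 and Col5a1 -1.25 ± 0.09 and -1.13 ± 0.08. Timp3, another inhibitor of matrix proteases, rose, with 11.60 and 11.77 on day 12, against 10.39 and 10.56 on day 0 (1.21 ± 0.10), and was higher than on days 4 and 8 by 4.42. Lats2, a kinase that restrains YAP, was at least 1.79-fold higher on day 12. Col4a1, Col5a1 and Ccn1 were higher on day 12 than on days 4 and 8 by 1.80, 1.67 and 1.54.

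Markers of fibroblasts moved with the matrix genes, and Col1a1 is on both lists. Of 8 fibroblast markers 3 were measured, and all 3 fell: Pdgfra (-1.15 ± 0.16), Pdgfrb (-1.25 ± 0.17) and Col1a1 (at least 1.85-fold lower). Their summed linear intensity was 99.8 and 107.4 on day 12, against 230.2 and 242.2 on day 0. Each value in these sums includes the offset of 16. The lowest detected log2 values on the day 12 arrays were 4.81 and 4.85, so the 3 genes lay near the detection floor there. The defining markers Dcn, Lum, Col1a2, Col3a1 and Thy1 did not pass the detection filter. The part of other cell types in the matrix result was not tested. Of 11 leukocyte markers 3 were measured (Lyz2, Fcer1g and Laptm5), with 0 called and a summed intensity of 148.8 and 134.9 on day 12, against 147.1 and 122.9 on day 0, while Ptprc, Cd3e, Itgam, Adgre1, Tyrobp and Csf1r did not pass the filter. Of the keratinocyte markers Krt1 was measured, with a call lost without the day 12 array of set 1 (-0.31) or the day 0 array of set 2 (-0.26), and of the endothelial markers Vwf, with no call.

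Caveolins and cavins, the coat proteins of the small membrane pits called caveolae, did not move together. Cav2 was far higher on day 12, with 8.65 and 8.56, against 4.82 and 4.86 on day 0, where it was undetected. Cav1, with which it assembles, had 8.00 and 7.99 on day 12, against 8.01 and 8.13 on day 0 (-0.08 ± 0.11, adjusted p = 0.61). The coat protein Cavin1 had 8.26 and 8.15 on day 12, against 9.73 and 9.91 on day 0 (-1.61 ± 0.11), though its second probe gave -0.06 with no call. Smaller falls were called for Ehd2 (-0.56 ± 0.16), Pacsin2 (-0.29 ± 0.12) and Cavin2 (-0.25 ± 0.10). Of the 6 measured genes 4 fell and 1 rose, but between 1 and 2 fell when a single array was left out, and Pacsin2 gave 0.20 in the mean over probes.

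WNT targets and lists of protein production and turnover held both rises and falls. Of 27 ribosomal protein genes 7 rose and 6 fell (25.9% and 22.2%, beside 22.8% and 29.5% of all genes, median -0.02), and of 8 WNT targets 2 rose and 3 fell (median -0.10). Of 28 proteasome genes 2 rose and 10 fell (7.14% and 35.7%, median -0.15), with 5 to 9 falls when an array was left out. Psmd14, its deubiquitinase, rose by 0.79 ± 0.09 and Psmc5 gave -0.58 ± 0.08. In ribosome biogenesis 10 of 25 rose and 5 fell (median 0.13), with 5 rises under median centring. Nop56 had 8.49 and 8.46 on day 12, against 7.68 and 7.90 on day 0 (0.69 ± 0.09). Myc, the factor that drives them, had 4.99 and 4.81 on day 12, where 1 array detected it, against 5.87 and 5.79 on day 0 (-0.93 ± 0.17). On days 4 and 8 these genes stood higher, and 24 of the 25 were lower on day 12.

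Lysosome and autophagy genes moved in both directions, with 14 of 35 higher and 11 lower (40% and 31.4%, median 0.06). The shares of all genes were 22.8% and 29.5%. Under median centring 5 members of the list were higher. Sqstm1, the autophagy receptor p62 and also an NRF2 target, had 13.56 and 13.61 on day 12, against 12.23 and 12.24 on day 0 (1.35 ± 0.07). Atp6v1h, a proton pump subunit, rose by 0.86 ± 0.08 and Ctsd, a protease, by 0.76 ± 0.17. Map1lc3b, the autophagosome protein LC3B, gave -1.03 ± 0.19 and Tfeb, the factor that switches on lysosomal genes, -0.74 ± 0.20, a call lost without the day 0 array of set 2 (-0.61).

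Of 15 clock genes 6 rose and 3 fell (40% and 20%, beside 22.8% and 29.5% of all genes, median 0.13). Clock rose by 0.58 ± 0.08 and Rora by 0.55 ± 0.11, and Csnk1e rose by 0.78 ± 0.08 on its brightest probe with another called at -0.31. Per1 had 8.50 and 8.52 on day 12, against 9.71 and 9.70 on day 0 (-1.20 ± 0.09). Dbp, an output gene of the clock, had 11.88 and 11.90, against 11.44 and 11.50 on day 0, a rise of 0.41 ± 0.07 that was not called under median centring (0.29), although it was higher than on days 4 and 8 by 3.52. Txnip, an arrestin that restrains glucose uptake, behaved alike, with 12.42 and 12.45 on day 12, against 11.73 and 11.70 on day 0 (0.72 ± 0.07), and a difference of 4.32 from days 4 and 8. For both genes, as for Timp3, the distance from days 4 and 8 was several times that from day 0.

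**Figure D5:**
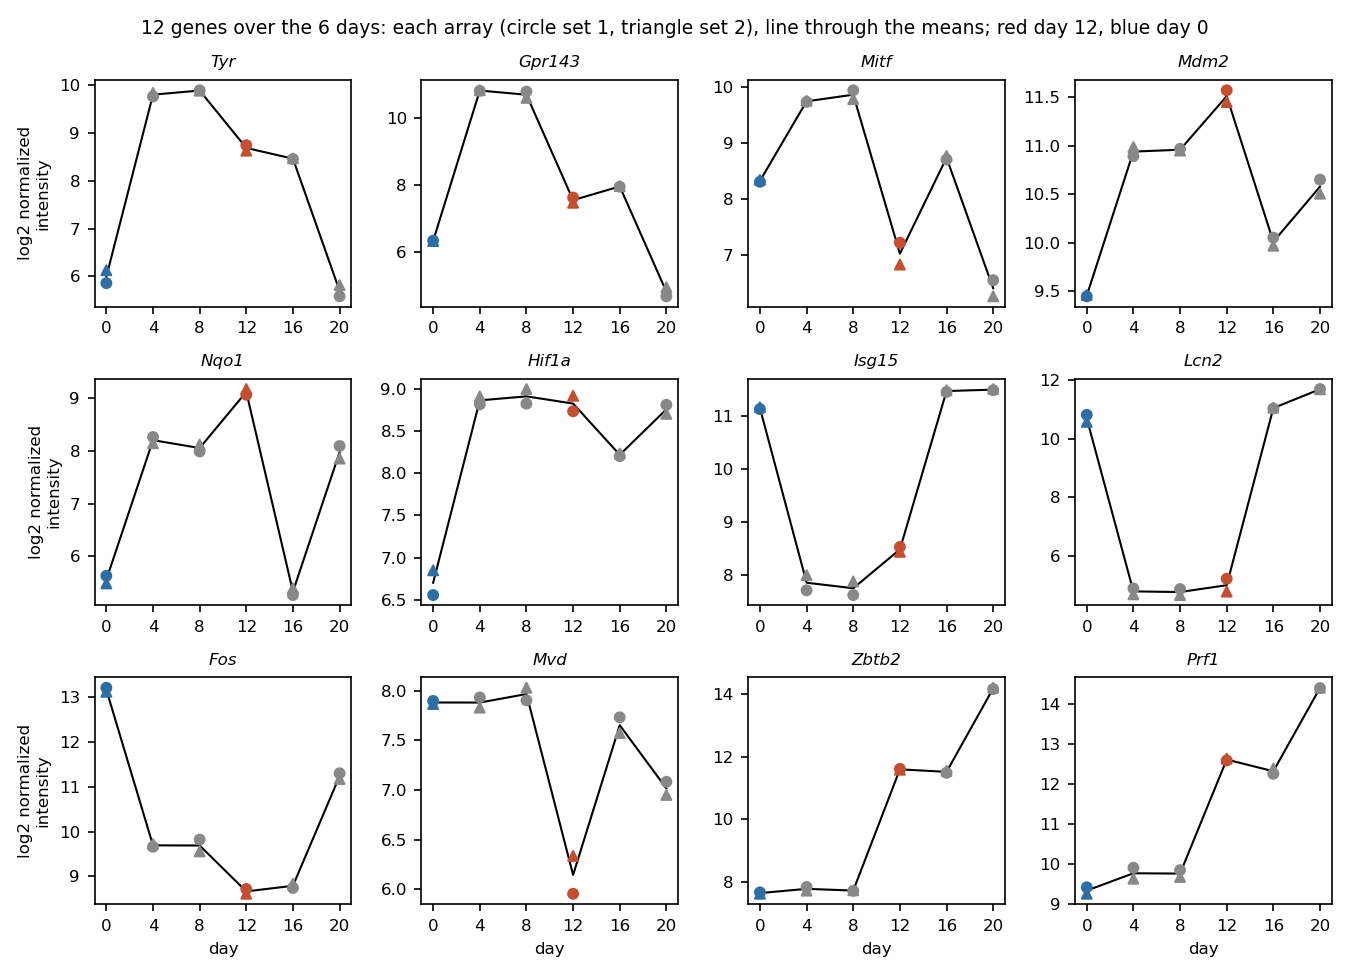
Log2 normalized intensity (vertical axis) over days 0 to 20 (horizontal axis) for 12 genes chosen after their values were seen, with each array as a circle (set 1) or triangle (set 2), a line through the means of 2 arrays, day 12 in red and day 0 in blue. Tyr and Gpr143 lie below their levels of days 4 and 8 on day 12 but above day 0, Mitf and Mvd lie below day 0, Mdm2 and Nqo1 are at their highest, and Zbtb2 and Prf1 stand above days 4 and 8.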

How the data were processed

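B16 cell RNA was hybridised to 12 Illumina mouse bead arrays. For 45281 probes the deposited signal table held an average intensity beside a detection p-value, per the file headers. The authors' value table of linear intensity was a straight-line transform of the same arrays, as found from the values. It numbered the sets of days 4, 12 and 20 the other way round (6 columns), so the signal table's numbers were used. The array version and the software are not given in the sources used here.

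Background was estimated from the detection p-values and arrays were quantile normalized with neqc of limma 3.58.1 (offset 16) in R 4.3.3. A detection p under 0.05 was required on 2 or more of 12 arrays, which 22978 probes met, of which 19120 had a single gene symbol in the platform annotation, giving 11470 genes at 1 probe each, the brightest. Bright probes can compress changes. The fit (lmFit, eBayes with trend) used all 12 arrays with day as a factor, two-sided, and was tested on simulated data. The number of arrays limits the precision. Of the named probes, RefSeq listed the gene of 34807, and 0 symbols were updated.

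Named genes were the 12 largest rises and falls among called genes detected on each day and the 6 largest bounds each way. The leading members of 40 gene lists were added (up to 6 in the main direction and 3 in the other). Any measured member of the pigment, p53, caveolae, G1/S, class II, Txnip and Id lists could also be named, and not all G1/S members are given. Members and lists were chosen with earlier results of these data known. Alternatives were only the 4 arrays, set as a block under either numbering, density as a term, no background correction, median centring, the authors' value table, other detection filters, the mean of probes, and leaving out each array. Deviations of the same set on day 12 and day 0 correlated at 0.055, and the tables disagreed on the sets of day 12, so set numbers were not taken to pair the arrays.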

Additional observations from a re-analysis of the deposited data

How the results depend on the processing

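The count of genes called, 2619 higher and 3381 lower, was 1760 and 2763 with median centring and 2226 to 2417 and 2773 to 2980 when an array was left out. With set as a replicate block it was 2716 and 3501, or 2577 and 3311 under the other table's set numbers, and the block is given without a claim that the sets pair the arrays. At least 2-fold, the counts of 495 and 550 became 215 and 227 without background correction, 319 and 349 with the authors' value table, and 484 to 511 and 561 to 588 without an array. The count higher than days 4 and 8 became 2232 with median centring. That setting also left 2 caveolae genes lower, and 3 tRNA synthetases, 6 endoplasmic reticulum chaperones, 5 G2/M, 5 ribosome biogenesis, 2 ribosomal protein and 5 lysosome genes higher. Without the filter 2 caveolae genes fell. With the mean of probes 7 heat shock genes and 1 leukocyte marker rose and 5 replication genes fell. Without an array, 1 to 2 caveolae, 5 to 9 proteasome and 11 to 16 respiratory chain genes fell and 7 to 10 G2/M genes rose. The direction turned for Atf6 (-0.042) and Psmd7 (-0.18) with only the 4 arrays, where another probe was the brightest, and with the mean of probes for Bbc3 (-0.063), Ccnd2 (0.0023), Ctnnb1 (-0.10), Dusp6 (0.25), Kars (0.35), Mcm6 (0.081), Nsdhl (-0.11), Pacsin2 (0.20), Pdk1 (0.16), Psmd7 (-0.30) and Vars (0.10). The cause of these shifts was otherwise not tested. Over all alternatives, gene results were counted as unchanged in 4459 cases, lost the call in 205 and gained it in 13. Turns of direction were counted only for genes called in the main fit. A turn in a gene not called there counted as unchanged. Weak probes near background limit what can be read from low genes.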
